A study of Mus musculus with 14 samples.

Results

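Cytokines and chemokines are secreted signals between immune and tissue cells, and 40 of their genes and receptor genes were followed in Fhl2 KO and WT mice. Fhl2 encodes a LIM-domain protein that acts as a transcriptional cofactor. Members were chosen by symbol, as rows of the count table whose Ensembl ID maps to a listed mouse symbol. Of the 33459 gene IDs in the table, 40 were members: 20 chemokine ligands, 12 cytokine ligands, 5 chemokine receptors and 3 cytokine receptors. A total of 41 symbols were listed, and Ccl19, for which no row was found, was not analysed here. The samples were gonadal white adipose tissue (gWAT), the fat around the gonads, of 3 Fhl2 KO and 3 WT samples, and heart of 4 Fhl2 KO and 4 WT samples. All mice were C57BL/6, aged 21 weeks, with 8 weeks of high-fat diet behind them, so no lean mice stand beside them. How the KO allele was made, and whether each library is 1 animal, is not given in the sources used here, so p-values measure only the spread between these samples.

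Chemokines guide leukocytes by binding G-protein-coupled receptors, as in the pairs of Ccl2 with Ccr2, Cxcl12 with Cxcr4 and Cx3cl1 with Cx3cr1. Cytokines such as interleukins, Tnf and Tgfb1 act through other receptor classes, and some members are brakes: Il1rn blocks the interleukin-1 receptor and Il1r2 is its decoy. In obese adipose tissue, macrophages are a well known source and target of these signals.

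Libraries held 15105019 to 16040188 counts in gWAT and 10835092 to 13272412 in heart. Fhl2 itself had 0.461, 0.257 and 0.450 CPM (read counts scaled to library size) in KO gWAT, against 4.34, 6.24 and 5.69 CPM in WT gWAT. In heart it lay at 28.5 to 37.8 CPM in KO and 1029 to 1394 CPM in WT. Adipoq, the adipocyte hormone adiponectin, was at 1755 to 4108 CPM in gWAT and at no more than 27.1 CPM in heart, and Myh6, a cardiac myosin, was at no more than 5.93 CPM in gWAT and at 9719 to 12684 CPM in heart. In gWAT, WT replicate 1 stood between the KO samples and the other WT samples for many members. In heart, atrial genes summed to 3146 to 4095 CPM in numbers 1 and 2 of both genotypes and to 89.2 to 806 CPM in numbers 3 and 4, and WT replicate 2 was high for several chemokines.

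In gWAT, 4 of the 35 members tested passed the threshold, an adjusted p (edgeR quasi-likelihood test, Benjamini-Hochberg over all genes tested) under 0.05. Il1rn, Ccl9 and the receptor Cx3cr1 fell in KO gWAT, and Ccl24 rose. Among all 15200 genes tested, 3.48% fell and 2.01% rose by the same rule, 5.49% in either direction, and 11.4% of the members tested passed in either direction. At an unadjusted p under 0.05, 15 of the 35 members were lower and 3 higher, beside 12.7% and 10.4% of all genes. The median log2 fold change (KO over WT) of the members tested was -0.51, with 8 above 0 and 27 below, while the median over all genes was 9.32e-05. Groups did not overlap for 10 members that were lower in KO and 2 that were higher (14.5% and 13.3% of all genes). The members were chosen with earlier results of these data known, so these counts and the median are no independent test of them. Ccl4, Il1a, Il1b, Il6 and Osm had too few counts to be tested in gWAT.

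The calls depended on single libraries. With KO replicate 1, KO replicate 3, KO replicate 4 or WT replicate 4 left out, 0 members and 0 genes in all passed. Without WT replicate 3, only Il1rn passed among members. Without WT replicate 1, 17 members were lower and 2 higher. Shares over all genes in this fit and in the alternative fits below are not reported here. Such counts are therefore not a result about the members. In this bulk tissue, fewer cells of a type and less RNA per cell cannot be told apart.

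**Figure D1:**
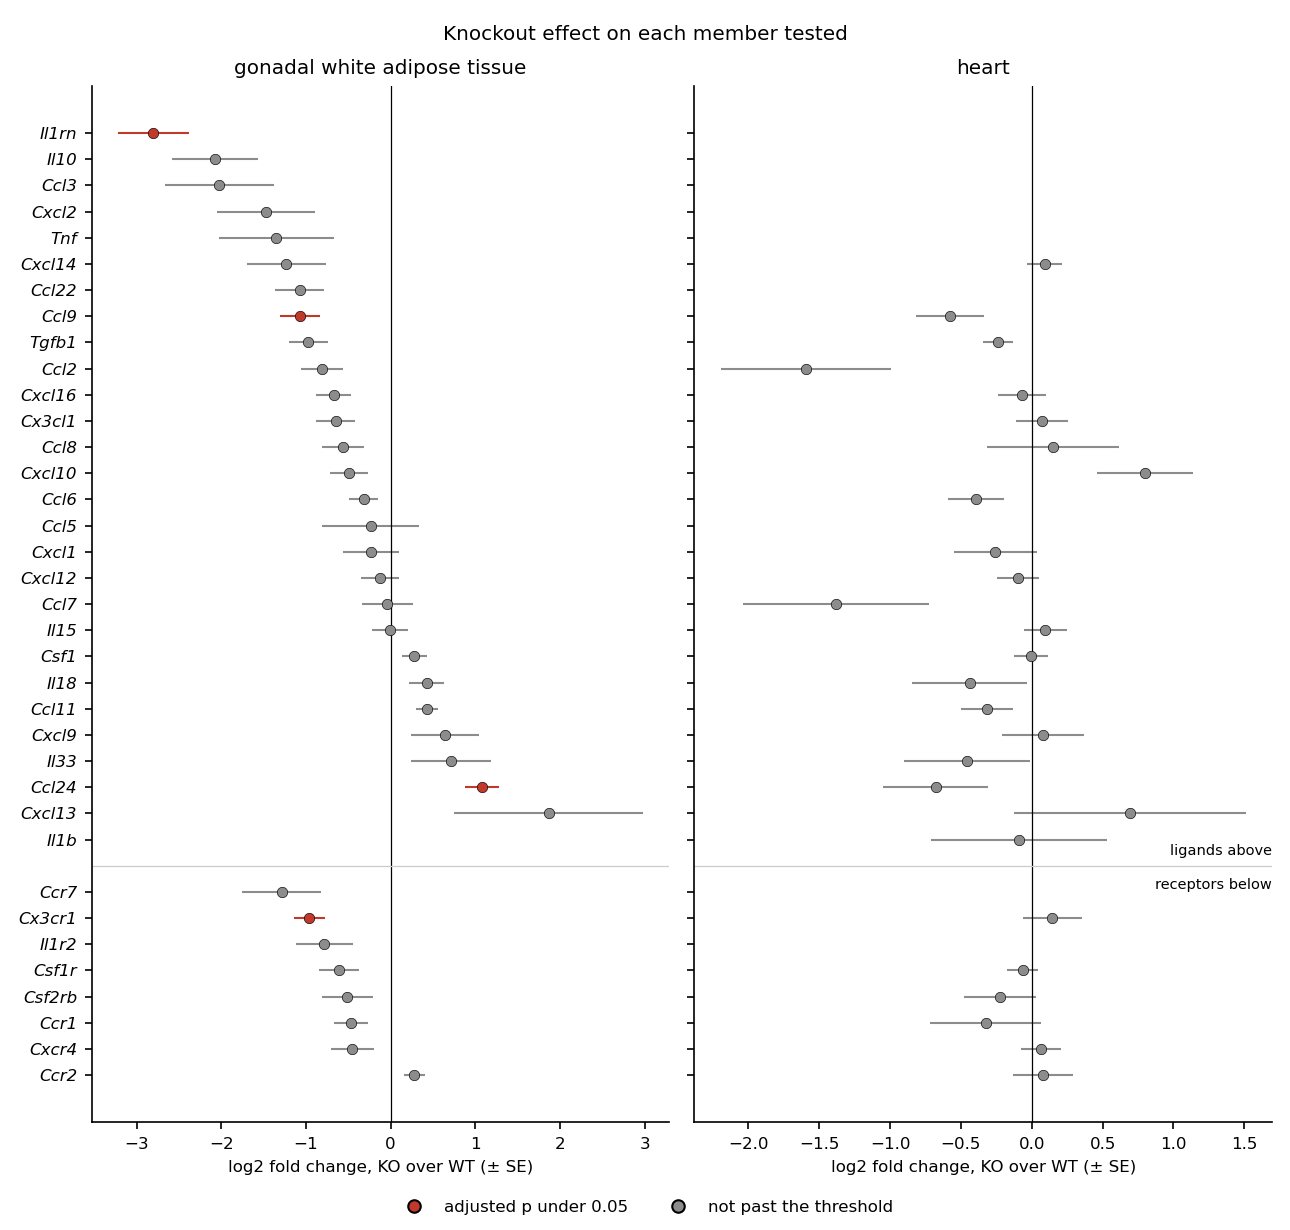
Log2 fold change of KO over WT (point) with its SE (bar) for each member tested in gWAT (left) and heart (right), ligands above receptors; the axes of both panels differ in range. Red points passed an adjusted p under 0.05: Il1rn, Ccl9, Ccl24 and Cx3cr1 in gWAT, and none in heart.

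The chemokine ligand that fell, Ccl9 (ENSMUSG00000019122, GRCm38 chr11:83572919-83578636, minus strand), is a mouse CC chemokine that binds Ccr1. Its level was 235, 199 and 271 CPM in KO gWAT, against 321, 610 and 551 CPM in WT gWAT. All KO samples lay below all WT samples, with WT replicate 1 the nearest. The log2 fold change was -1.07 ± 0.24 (SE, adjusted p = 0.0416, edgeR; 0.000298 to 0.169 over the alternatives). Its neighbour Ccl6, a related CC chemokine and the member with the highest level per kilobase of exon in WT gWAT, had 337, 286 and 402 CPM in KO, against 349, 476 and 451 CPM in WT. These groups overlapped, and Ccl6 did not pass (log2 fold change -0.32 ± 0.17, adjusted p = 0.309, edgeR).

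The cytokine antagonist Il1rn (ENSMUSG00000026981, GRCm38 chr2:24336853-24351494, plus strand) had the lowest log2 fold change of all members tested in gWAT. It was measured at 10.7, 12.8 and 11.8 CPM in KO gWAT, against 33.0, 119 and 94.7 CPM in WT gWAT. The KO samples lay close together and below each WT sample, of which replicate 1 was again the lowest. The log2 fold change was -2.81 ± 0.42 (SE, adjusted p = 0.0228, edgeR; 2.69e-11 to 0.12 over the alternatives).

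The receptor Cx3cr1 (ENSMUSG00000052336, GRCm38 chr9:119901616-120069879, minus strand) binds Cx3cl1 and marks monocytes and some macrophages. Its level was 3.49, 3.46 and 3.09 CPM in KO gWAT, against 6.83, 6.99 and 5.75 CPM in WT gWAT. Here WT replicate 1 stood with the other WT samples, and the groups did not overlap. The log2 fold change was -0.96 ± 0.18 (SE, adjusted p = 0.0306, edgeR; 0.00176 to 0.121 over the alternatives). An exon of Cx3cr1 overlaps Gm33858 on the other strand, and whether reads were counted by strand is not given in the sources used here.

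The promoters of these 3 genes and of Ccl6 are shown because Ccl9, Il1rn and Cx3cr1 fell together and Ccl6 neighbours Ccl9. Sequences are from RefSeq (GRCm38.p6), 250 bases before to 50 after the annotated start, 5′ to 3′ on the gene's strand, with motif matches in capitals. A loose form of the AP-1 motif, with any base at its centre, was searched on both strands as TGANTCA. The TATA box was likewise searched as TATAAA, and the NF-kappaB site in a 10-letter form. The windows are chr2:24336610-24336909 (plus) and chr2:24345041-24345340 (plus) for Il1rn, chr11:83578587-83578886 (minus) for Ccl9, chr11:83593038-83593337 (minus) for Ccl6 and chr9:120068247-120068546 (minus) for Cx3cr1. RefSeq lists 3 starts for Il1rn, and the window of the third, chr2:24345121-24345420 (plus), is not printed because it overlaps the second.
Il1rn first start: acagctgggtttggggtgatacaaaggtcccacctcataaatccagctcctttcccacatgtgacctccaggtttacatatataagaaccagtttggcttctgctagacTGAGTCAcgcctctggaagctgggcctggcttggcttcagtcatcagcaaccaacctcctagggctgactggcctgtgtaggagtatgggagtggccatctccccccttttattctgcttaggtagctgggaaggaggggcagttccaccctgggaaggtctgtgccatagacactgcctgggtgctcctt
Il1rn second start: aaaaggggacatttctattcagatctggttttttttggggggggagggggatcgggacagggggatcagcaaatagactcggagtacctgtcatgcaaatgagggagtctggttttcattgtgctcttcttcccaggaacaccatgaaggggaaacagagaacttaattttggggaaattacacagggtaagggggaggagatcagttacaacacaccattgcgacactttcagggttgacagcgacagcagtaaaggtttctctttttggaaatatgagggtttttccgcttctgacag
Ccl9: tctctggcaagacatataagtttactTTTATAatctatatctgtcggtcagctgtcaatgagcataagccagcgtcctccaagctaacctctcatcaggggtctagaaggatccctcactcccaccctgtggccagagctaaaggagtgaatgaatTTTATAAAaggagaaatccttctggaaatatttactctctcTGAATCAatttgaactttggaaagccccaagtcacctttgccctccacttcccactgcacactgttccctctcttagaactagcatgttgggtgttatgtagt
Ccl6: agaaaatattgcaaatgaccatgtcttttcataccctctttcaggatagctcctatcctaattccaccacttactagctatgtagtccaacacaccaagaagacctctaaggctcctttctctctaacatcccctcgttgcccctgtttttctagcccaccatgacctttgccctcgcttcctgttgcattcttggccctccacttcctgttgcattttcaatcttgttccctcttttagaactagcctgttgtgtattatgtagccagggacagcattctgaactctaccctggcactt
Cx3cr1: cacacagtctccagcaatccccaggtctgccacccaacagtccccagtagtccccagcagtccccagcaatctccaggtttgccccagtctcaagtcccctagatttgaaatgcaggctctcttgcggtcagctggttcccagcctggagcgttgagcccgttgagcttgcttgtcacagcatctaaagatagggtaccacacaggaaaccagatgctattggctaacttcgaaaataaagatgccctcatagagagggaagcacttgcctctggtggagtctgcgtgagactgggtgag

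The first Il1rn window held 1 TGANTCA match, with the letters TGAGTCA, and the Ccl9 window held 1, with the letters TGAATCA. The Ccl9 window also held 3 TATAAA matches, of which a pair overlaps. They began at -224, -94 and -92 from the annotated start. The third Il1rn window held 1 TATAAA match, which began at 14, after the start. The second and those of Ccl6 and Cx3cr1 held none of the 3 motifs. TGANTCA stood in 7.81% of all 32851 promoters and in 6 of the 30 promoters of the 27 members with an entry. TATAAA stood in 13.6% of all promoters and in 13 of these 30, from 12 members. The NF-kappaB form stood in 0.411% of all promoters and in 4 of these 30, those of Csf1, Cxcl1, Cxcl2 and Il6. A match is a run of letters and not a measured binding site.

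Ccl24 (ENSMUSG00000004814, GRCm38 chr5:135569937-135573049, minus strand), an eotaxin that attracts eosinophils through Ccr3, was the member that rose. It had 11.4, 9.94 and 15.1 CPM in KO gWAT, against 6.55, 5.81 and 4.84 CPM in WT gWAT. Every KO sample was above every WT sample. The log2 fold change was 1.08 ± 0.20 (SE, adjusted p = 0.0296, edgeR; 0.000285 to 0.141 over the alternatives). Ccl11, the other eotaxin measured, had 93.3, 79.5 and 111 CPM in KO, against 69.3, 72.2 and 69.4 CPM in WT. Its groups did not overlap either, but it did not pass (log2 fold change 0.43 ± 0.13, adjusted p = 0.0948, edgeR). Ccr3, their receptor, was at 1.19, 0.641 and 1.35 CPM in KO gWAT, against 0.896, 2.5 and 2.30 CPM in WT gWAT. The eosinophil marker Siglecf had 0.923, 0.257 and 0.836 CPM in KO gWAT, against 0.414, 0.937 and 0.484 CPM in WT gWAT (log2 fold change 0.12 ± 0.54). With the mast cell genes Cpa3, Cma1 and Mcpt4, which made up most of the sum, the list of eosinophil and mast cell markers summed to 11.7 to 16.4 CPM in KO and 16.4 to 34.3 CPM in WT. The part of these cells in the Ccl24 result was not tested.

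**Figure D2:**
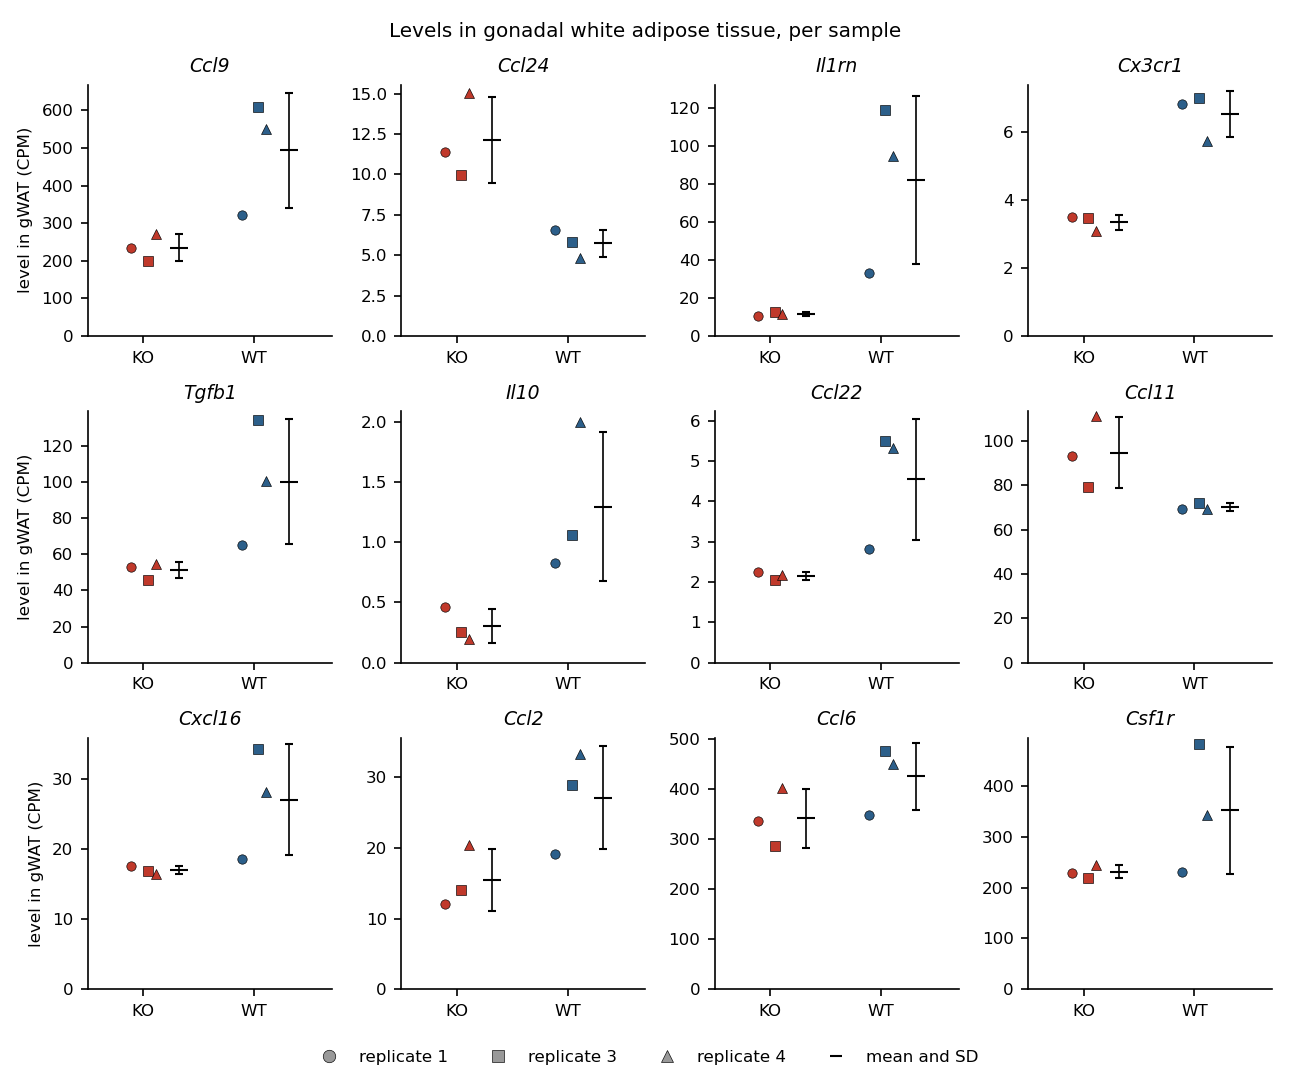
Level in gWAT (CPM, from 0) of the 10 members with the smallest p and of Ccl6 and Csf1r, KO left of WT; each symbol is a sample, and the bar is the mean with its SD (n = 3). Il1rn, Ccl9 and Cx3cr1 are lower in every KO sample and Ccl24 is higher, and WT replicate 1 (circle) is the lowest WT sample for Il1rn and Ccl9.

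The other members among the 10 with the smallest p did not pass. Tgfb1, a growth factor that restrains inflammation and drives matrix deposition, had 53.1, 46.0 and 54.4 CPM in KO gWAT, against 65.4, 135 and 101 CPM in WT gWAT (log2 fold change -0.97 ± 0.23, adjusted p = 0.0517, edgeR). Il10, an anti-inflammatory cytokine, had 0.461, 0.257 and 0.193 CPM in KO, against 0.827, 1.06 and 2.00 CPM in WT (-2.08 ± 0.51, adjusted p = 0.0535, edgeR). Both were non-overlapping, and Il10 rests on 14 reads in all KO samples and 62 in all WT samples.

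Ccl22, a ligand of Ccr4 made by macrophages and dendritic cells, had 2.24, 2.05 and 2.19 CPM in KO gWAT, against 2.83, 5.49 and 5.33 CPM in WT gWAT (log2 fold change -1.08 ± 0.29, adjusted p = 0.0698, edgeR). Cxcl16, the membrane-bound ligand of Cxcr6, had 17.5, 16.9 and 16.4 CPM in KO, against 18.5, 34.3 and 28.1 CPM in WT (-0.67 ± 0.21, adjusted p = 0.0962, edgeR), and its exons overlap those of Zmynd15. In both, WT replicate 1 lay nearer to the KO samples than to the other WT samples. Ccl2, the main monocyte attractant, had 12.0, 14 and 20.4 CPM in KO, against 19.1, 29.0 and 33.4 CPM in WT (-0.81 ± 0.25, adjusted p = 0.0979, edgeR). Its groups overlapped. DESeq2 called 9 members lower (share over all genes not reported here): Ccl2, Ccl3, Ccl9, Ccl22, Cxcl16, Il1rn, Il10, Tgfb1 and Cx3cr1.

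Among the 8 receptors, 7 had a negative log2 fold change in gWAT and 1 passed. Csf1r, the receptor of Csf1 on macrophages, had 229, 220 and 245 CPM in KO, against 232, 483 and 343 CPM in WT. WT replicate 1 was within the KO range, and Csf1r did not pass (log2 fold change -0.61 ± 0.24, adjusted p = 0.169, edgeR). Its exons overlap those of Hmgxb3. Ccr2, the Ccl2 receptor on monocytes, was the exception with 134, 113 and 143 CPM in KO, against 115, 105 and 100 CPM in WT (0.28 ± 0.12, adjusted p = 0.205, edgeR). The log2 fold change of Ccr7, Il1r2, Csf2rb, Ccr1 and Cxcr4 lay between -1.29 and -0.45, with none past the threshold. Csf2rb has a near-identical paralog, Csf2rb2, so its counts are uncertain.

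The remaining ligands tested in gWAT did not pass either. Those with a negative log2 fold change were Ccl3 (-2.02), Cxcl2 (-1.47), Tnf (-1.35), Cxcl14 (-1.23), Cx3cl1 (-0.65), Ccl8 (-0.56), Cxcl10 (-0.49), Ccl5 (-0.24), Cxcl1 (-0.23), Cxcl12 (-0.12), Ccl7 (-0.04) and Il15 (-0.01). Those with a positive one were Csf1 (0.28), Il18 (0.42), Cxcl9 (0.64), Il33 (0.71) and Cxcl13 (1.87). Tnf, the classical inflammatory cytokine, had 0.659, 0.513 and 0.579 CPM in KO gWAT, against 0.207, 2.00 and 2.24 CPM in WT gWAT, so WT replicate 1 was the lowest of all samples. Il33, an alarmin of stromal cells, had 16.5, 33.0 and 15.1 CPM in KO, against 22.6, 5.99 and 11 CPM in WT, and passed only without WT replicate 1.

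Some ligands were high in 1 KO sample. Cxcl13, the B cell attractant, had 0.857, 21.9 and 1.03 CPM in KO gWAT, against 3.38, 1.69 and 1.51 CPM in WT gWAT. In the same KO replicate 3, B cell markers summed to 21.7 CPM, against 5.21 to 6.81 CPM in the other gWAT samples of both genotypes, and Cxcr5, the Cxcl13 receptor, was at 2.95 CPM. Cxcl9, an interferon-induced attractant of T cells, had 82.7, 21.6 and 39.8 CPM in KO, against 28.0, 32.0 and 32.3 CPM in WT. KO replicate 1, the high one, also had the highest Ccl5 in gWAT, 10.1 CPM, against 8.80 CPM in WT replicate 3. Its T cell markers summed to 16.2 CPM, against 15 CPM in WT replicate 3, and its NK cell markers to 10.3 CPM, against at most 6.54 CPM in WT samples. The part of these cells in the levels was not tested.

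**Figure D3:**
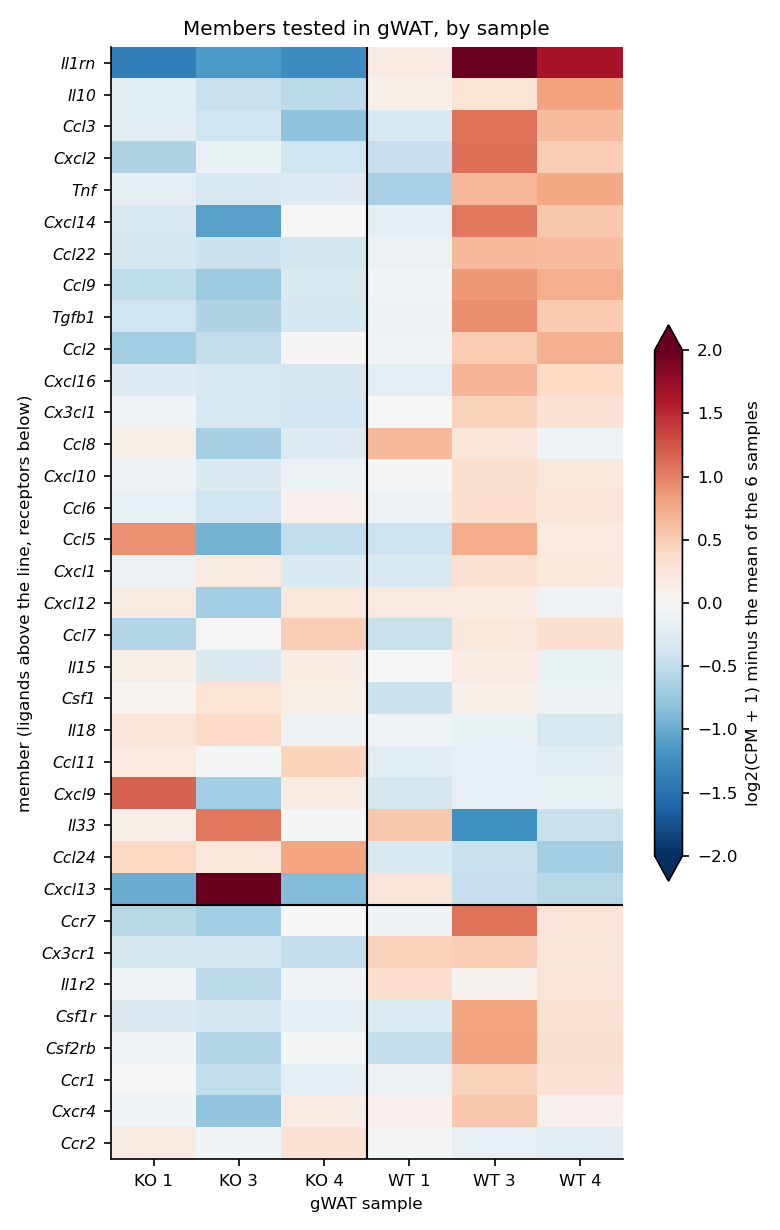
Each member tested in gWAT (rows) by sample (columns, KO left of WT), as log2(CPM + 1) minus the mean of the 6 samples; colours are capped at -2 and 2. WT replicates 3 and 4 are above the mean for most ligands in the upper rows, WT replicate 1 is nearer to the KO samples, and Cxcl13 and Cxcl9 each stand out in 1 KO sample.

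Many macrophage markers were lower in the KO samples too. Lipid-associated macrophage markers, genes of lipid-laden macrophages such as Trem2 and Gpnmb, summed to 716 to 834 CPM in KO gWAT and 1482 to 5924 CPM in WT gWAT, and 8 of 9 fell. General macrophage markers summed to 2290 to 2576 CPM in KO and 2736 to 5645 CPM in WT, and 4 of 13 fell. Over all genes, 3.48% fell and 2.01% rose. Monocyte markers summed to 42.5 to 65.9 CPM in KO and 39.6 to 70.9 CPM in WT, and 1 of 5 fell. Their log2 fold changes went both ways, 2 positive and 3 negative. The highest was that of Ly6c2 (2.62), which did not pass. It had 57, 28 and 249 reads in KO gWAT, against 11, 19 and 25 reads in WT gWAT. Cd163, a scavenger receptor of resident macrophages, went the other way with 173, 127 and 178 CPM in KO, against 117, 65.6 and 67.6 CPM in WT, and did not pass (log2 fold change 0.93 ± 0.24, adjusted p = 0.0612, edgeR). WT replicate 1 held the lowest WT sum of both macrophage lists. Of 6 mesothelial markers 3 rose, with sums of 311 to 517 CPM in KO and 115 to 244 CPM in WT. Of the 5 neutrophil markers, 2 were tested in gWAT. S100a8 had 4.04 to 4.42 CPM in KO and 7.49 to 22.3 CPM in WT without passing, and Mmp9 rose (log2 fold change 1.18 ± 0.24, adjusted p = 0.0334, edgeR). Ly6g was at 0 in every gWAT sample. Retnlg had 12, 2 and 19 reads in KO gWAT, against 0, 0 and 7 reads in WT gWAT. S100a9 had 0, 3 and 10 reads in KO, against 1, 15 and 7 reads in WT. The part of these cells in the members' values was not tested.

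Among other genes of the pathway, 1 of 32 other cytokine receptors tested in gWAT fell, or 3.12%, a share near that of all genes (3.48% lower). The interleukin-7 receptor Il7r had 16.7, 11.3 and 18.8 CPM in KO, against 27.9, 115 and 88.7 CPM in WT (log2 fold change -2.31 ± 0.46, adjusted p = 0.0338, edgeR). It was lower in every KO sample.

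Of 27 signalling and processing genes, 1 fell and 1 rose, 7.41% in either direction beside 5.49% of all genes. Pycard, the inflammasome adaptor, fell (10.1, 10.1 and 10.6 CPM in KO, against 14, 26.1 and 22.8 CPM in WT; log2 fold change -1.03 ± 0.22, adjusted p = 0.0374, edgeR). Cish, a feedback inhibitor of cytokine receptors that signal through Stat5, rose (4.48, 7.70 and 12.6 CPM in KO, against 2.76, 2.5 and 2.97 CPM in WT; 1.59 ± 0.36, adjusted p = 0.0439, edgeR). No other chemokine ligand of 5 tested and no other cytokine ligand of 15 tested passed. The smallest p among them were those of Pf4 (log2 fold change -0.30 ± 0.17) and Il34 (0.42 ± 0.13).

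In heart, 0 of 27 members tested passed by edgeR, beside 0.00706% of all 14159 genes. By DESeq2 or limma-voom, or with numbers 1 and 2 against 3 and 4 as a covariate, 0 passed too. Shares over all genes in those 3 fits are not reported here. At an unadjusted p under 0.05, 3 members were lower and 1 higher (1.6% of all genes each way), and 0 members had non-overlapping groups (1.17% lower and 1.24% higher over all genes). The smallest p belonged to Ccl2, with 1.87, 3.42, 3.01 and 2.60 CPM in KO heart, against 5.59, 20.8, 4.33 and 2.03 CPM in WT heart (log2 fold change -1.60 ± 0.60, and -0.56 without WT replicate 2). WT replicate 2 was far above the other hearts. Ccl7, another monocyte attractant, had 3.20, 4.04, 4.36 and 2.35 CPM in KO, against 4.34, 25.2, 4.33 and 2.29 CPM in WT, with the same sample high. At an unadjusted p under 0.05, 0 members were lower without WT replicate 2, and 1 with library totals or limma-voom. The count was 5 without WT replicate 3 or 4, and 6 with the replicate block or the covariate. With no filter it was 7, of 40 members tested in place of 27. Shares over all genes in these settings are not reported here. Ccl3, Ccl4, Ccl5, Ccl22, Cxcl2, Il1a, Il1rn, Il6, Il10, Tnf, Osm, Ccr7 and Il1r2 had too few counts to be tested in heart.

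Ccl9 had 27.1, 28.3, 20.2 and 17.5 CPM in KO heart, against 38.4, 49.2, 20.5 and 30.4 CPM in WT heart (log2 fold change -0.58 ± 0.24). Tgfb1 had 28.9, 28.9, 31.4 and 24.1 CPM in KO, against 36.4, 36.6, 31.9 and 28.7 CPM in WT (-0.24 ± 0.10). Cxcl10, an interferon-induced attractant whose exons overlap Art3, had 2.11, 1.84, 0.950 and 1.09 CPM in KO, against 0.808, 1.15, 0.780 and 0.677 CPM in WT (0.80 ± 0.34). These groups overlapped, and the adjusted p was 1 for each (edgeR). Between same-numbered hearts, Ccl9 and Tgfb1 were lower in KO in 4 of 4 pairs and Cxcl10 higher in 4 of 4. With the replicate block their adjusted p were 0.311, 0.681 and 0.83 (edgeR). Ccl11, Ccl24, Cxcl2 and Il18 were also lower in KO in 4 of 4, and Tnf higher. Of these, Cxcl2 and Tnf had too few counts to be tested in heart. The labels do not give such pairs, and the share of all genes with 4 of 4 was not counted. Counts of pairs are therefore not a result about the members. Cxcl12, the ligand of Cxcr4 with the highest level per kilobase in WT heart, had 220, 181, 277 and 261 CPM in KO, against 246, 196, 284 and 281 CPM in WT (-0.10 ± 0.15), with numbers 1 and 2 the lower ones in both genotypes. Ccl6 had 39.6, 41.1, 30.1 and 31.2 CPM in KO, against 49.8, 64.0, 30.7 and 41.7 CPM in WT (-0.39 ± 0.20). Both were lower in KO in 4 of 4 pairs.

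**Figure D4:**
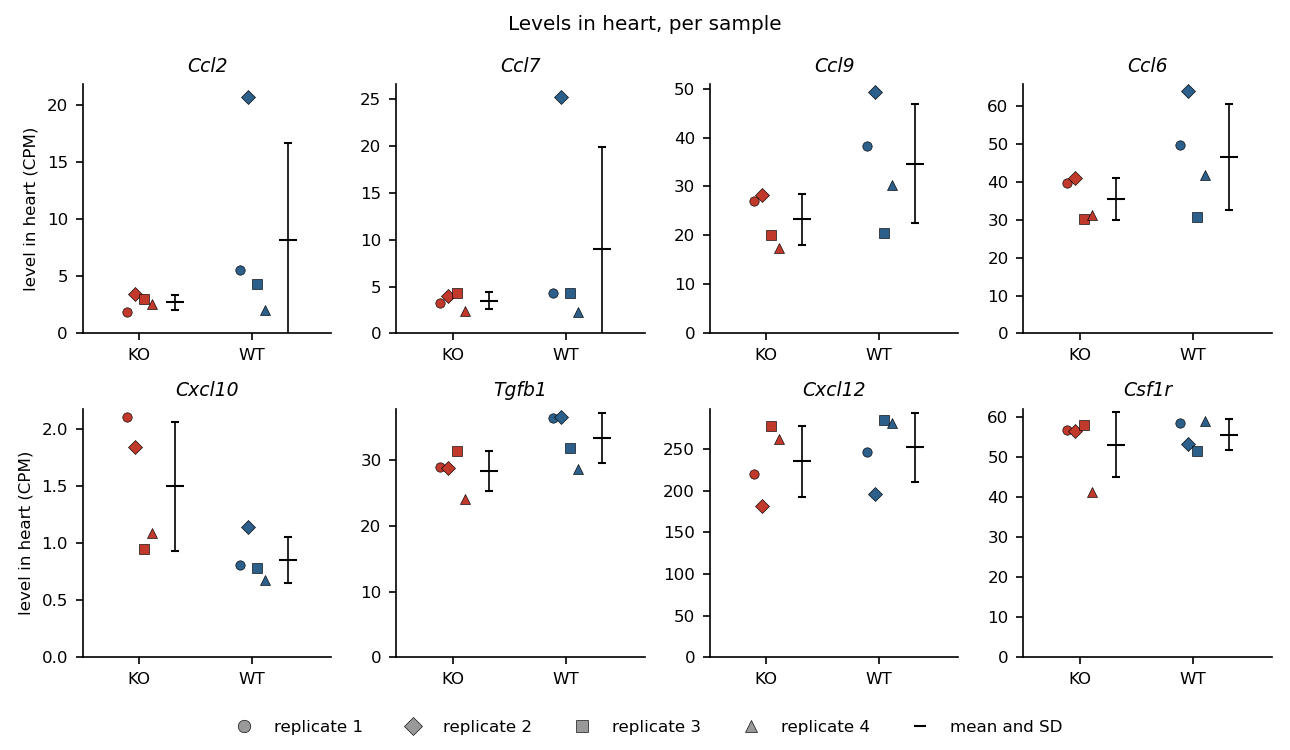
Level in heart (CPM, from 0) of 8 members, KO left of WT; each symbol is a sample, and the bar is the mean with its SD (n = 4), cut at 0 for Ccl2 and Ccl7. The groups overlap for each, and WT replicate 2 (diamond) is far above the rest for Ccl2 and Ccl7.

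Whether the genotype effect differed between the tissues was tested as gWAT minus heart in 1 fit of all 14 libraries. By edgeR, 0 of 36 members passed, beside 1.15% of all 16014 genes (0.362% higher and 0.787% lower). At an unadjusted p under 0.05, 2 were higher and 8 lower, beside 6.14% and 9.07% of all genes. DESeq2 called 2 higher and 2 lower and limma-voom called 0, with the shares over all genes in these fits not reported here. The smallest p was that of Cx3cr1 (log2 difference -1.11 ± 0.28, adjusted p = 0.0646, edgeR), followed by Ccl24 (1.76 ± 0.47, adjusted p = 0.0789, edgeR). In heart, Cx3cr1 had a log2 fold change of 0.14 ± 0.21 and Ccl24 of -0.68 ± 0.37. For Il1rn and Ccl9, which fell in gWAT, 0 of the 20 alternatives called a difference between the tissues. Leaving out 1 library gave log2 differences of -1.74 to -0.52 for Il1rn and -0.71 to -0.31 for Ccl9. Of the 20 alternatives, 3 called Ccl24 (DESeq2, no filter and without gWAT WT replicate 1) and 2 called Cx3cr1 (DESeq2 and without gWAT WT replicate 1), with lowest adjusted p of 0.00683 and 0.02.

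Between the tissues of WT mice, 21 of 36 members were higher in gWAT and 5 lower, beside 36.6% and 33.9% of all 16014 genes, 70.5% in either direction. At an unadjusted p under 0.05, 22 were higher and 6 lower, beside 37.7% and 34.9% of all genes. Of the 8 receptors, 7 were higher in gWAT, and Cx3cr1 did not pass. Il1rn was at 66.1 ± 34.8 CPM in WT gWAT (SD, n = 3) and 1.08 ± 1.01 CPM in WT heart (SD, n = 4), on scaling factors common to both tissues, a log2 fold change of 5.88 ± 0.48. Csf2rb, the shared signalling chain of the receptors for interleukin-3, interleukin-5 and Csf2, had 51.3 ± 20.8 CPM in WT gWAT and 3.13 ± 0.895 CPM in WT heart. Ccr2 had 86.7 ± 7.77 CPM in WT gWAT and 11.5 ± 2.69 CPM in WT heart. Ccl11 had 57.0 ± 1.02 CPM in WT gWAT and 6.62 ± 1.6 CPM in WT heart.

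The 5 members lower in gWAT were Il15, Cxcl14, Cx3cl1, Cxcl12 and Csf1. Il15, which sustains NK cells and memory T cells, had 4.27 ± 0.515 CPM in WT gWAT and 25.2 ± 6.29 CPM in WT heart (log2 fold change -2.55 ± 0.19). Cxcl14 had 4.45 ± 2.08 CPM in WT gWAT and 21.7 ± 3.90 CPM in WT heart (-2.27 ± 0.29). Cx3cl1, the ligand of Cx3cr1, had 3.89 ± 0.663 CPM in WT gWAT and 10.8 ± 1.69 CPM in WT heart (-1.47 ± 0.20). Cxcl12 and Csf1 were no longer called with library totals in place of scaling factors, and Csf1 then changed sign (0.17, against -0.41 ± 0.14), a scaling that moved the median of all genes to 0.61. Csf1 was also not called with the replicate block (adjusted p = 0.0935, edgeR), without heart WT replicate 2 (0.0546) or without gWAT WT replicate 1 (0.0797). Per kilobase of exon, Ccl6 (237), Ccl9 (162) and Ccl11 (65.0 CPM per kilobase) ranked highest in WT gWAT, and Cxcl12 (30.8), Ccl6 (25.9) and Ccl9 (11.4 CPM per kilobase) in WT heart. The heart values of Ccl9 and Ccl7 (11.3 CPM per kilobase) lay within their spread.

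**Figure D5:**
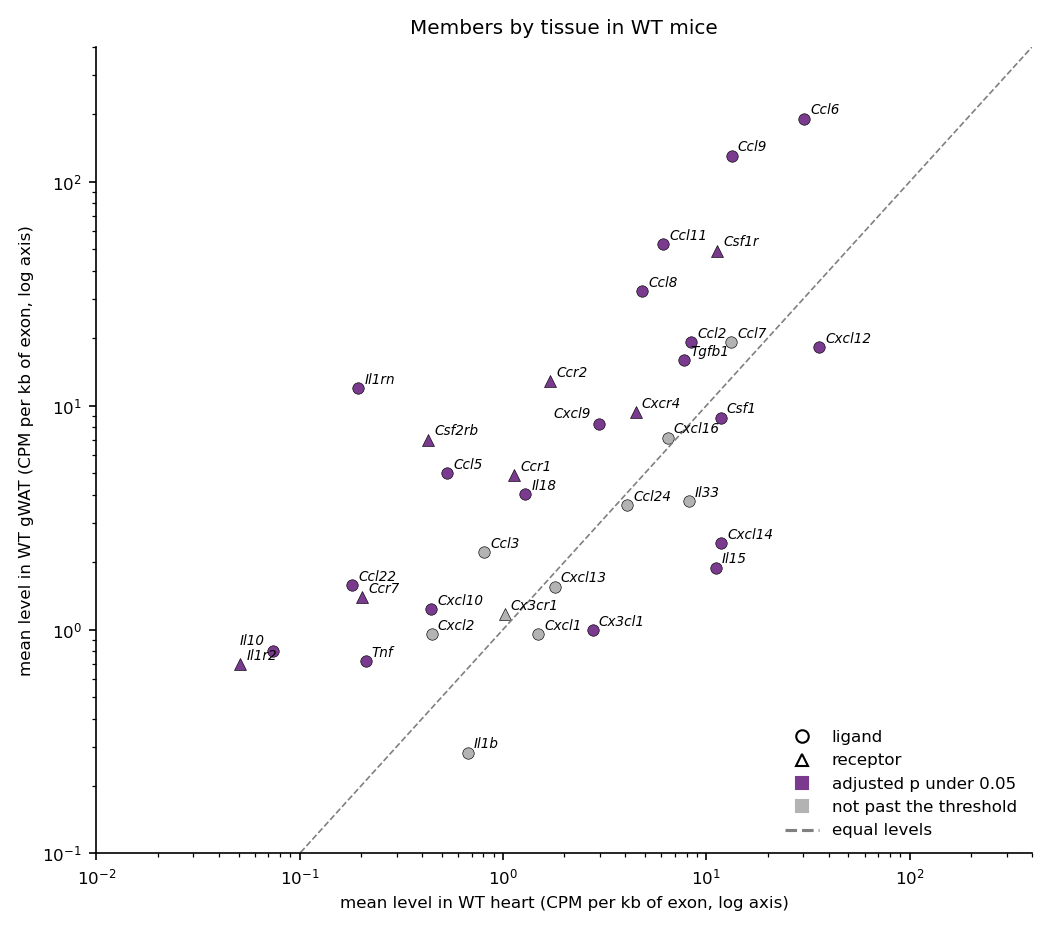
Mean level of each member tested in WT gWAT (vertical) against WT heart (horizontal), in CPM per kilobase of exon on log axes, with scaling factors common to both tissues; circles are ligands, triangles receptors, purple an adjusted p under 0.05. Il1rn and Csf2rb lie far above the dashed line of equal levels, and Il15, Cxcl14, Cxcl12, Csf1 and Cx3cl1 lie below it.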

How the data were processed

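The deposited table holds raw counts of reads per Ensembl gene, whole numbers with no normalization by the authors, 1 column a library. Per the submitters' processing notes, HTSeq 0.11.0, HISAT2 2.1.0, Trimmomatic 0.32, limma, Picard and FastQC were used on mm10. Whether reads were counted by strand is not given in the sources used here, so counts of genes with exons overlapping another gene are uncertain. Per the labels, libraries were made from Trizol-extracted RNA with a Kapa mRNA kit.

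From these counts, genes were filtered with filterByExpr, scaled with TMM and tested in each tissue with the quasi-likelihood test of edgeR 4.0.16 (R 4.3.3; limma 3.58.1; DESeq2 1.42.0), with Benjamini-Hochberg adjustment over all genes tested and a threshold of 0.05. The interaction and the tissue contrast came from 1 fit of all 14 libraries. The SE is the log2 fold change over the root of F. CPM are on TMM-scaled totals within a tissue, unless stated. Symbols, exon lengths and coordinates are from GENCODE M21. Tests were tried on simulated data first. Tables and plots used Python 3.11.15, pandas 2.3.3 and matplotlib 3.10.9.

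The members and lists were chosen with earlier results of these data known. Values per sample are given for members past the threshold, the 10 with the smallest p in gWAT, the 4 in heart and the 3 highest levels per tissue. For pathway lists, up to 4 past the threshold, or else the 1 with the smallest p, are named. Other genes, and the members named between tissues, were chosen after their values were seen. Pairing in heart was read from the data, since the labels give only numbers. Deviations from the group means of same-numbered KO and WT hearts correlated (r of 0.198, 0.254, 0.250 and 0.186, each over 0.1). Differently numbered hearts correlated as much within numbers 1 and 2 (0.142 and 0.337) and within 3 and 4 (0.192 and 0.259), so the split of 1 and 2 from 3 and 4 and the single number cannot be told apart. Alternatives were RLE scaling, library totals, no filter, DESeq2, limma-voom, a replicate block, 1 fit of all libraries, a heart covariate for numbers 1 and 2 against 3 and 4, and leaving out each library. The list of other chemokine receptors in gWAT is not reported here.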

Additional observations from a re-analysis of the deposited data

Results flagged for a closer look

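Of 54 group values of members checked in heart, where groups hold 4 samples, 3 had a sample far from the rest of its group, and chance gives about 1 in 20. Csf1r was at 41.2 CPM in KO replicate 4, against 56.7 to 58.0 CPM in the other KO hearts. Ccl7 was at 25.2 CPM in WT replicate 2, against 2.29 to 4.34 CPM in the other WT hearts. Ccr1 was at 5.11 CPM in that same WT replicate 2, against 1.61 to 2.20 CPM in the others. The gWAT groups of 3 were not checked in this way.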

How the results depend on the processing

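In gWAT, 1 member was higher and 3 were lower. No filter and DESeq2 each gave 9 lower, and 1 fit of all libraries gave 0 higher and 6 lower. Among the genes named, limma-voom no longer called Ccl9, Il7r, Pycard or Cish, and still called Il1rn, Cx3cr1 and Ccl24. Shares over all genes in these fits are not reported here. Leaving out 1 library gave 0 to 2 higher and 0 to 17 lower. With the replicate block, 0 were higher and 0 lower. Same-numbered gWAT samples correlated at -0.104, -0.191 and 0.0122. With 3 samples a group, these values cannot show whether equal numbers mark something shared, and the labels do not say. The block changed no call in heart, where 0 members passed under every alternative run. For the difference between tissues (0 higher, 0 lower), no filter gave 1 higher and 1 lower, DESeq2 2 and 2, and leaving out 1 library 0 to 1 higher and 0 to 5 lower. Between WT tissues, library totals left 3 members lower in gWAT instead of 5. The sign changed for Cxcl12 in heart without KO replicate 2 (0.00686; leaving out 1 heart library gave -0.202 to 0.00686), for Ccl12 in heart without WT replicate 2 (-1.06 to 0.156 over the libraries left out) and for Csf1 between tissues with library totals (0.168). The causes were not tested. Values under 1 CPM, as of Il10, rest on few reads.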

Other observations

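The pathway genes with the smallest p in heart, none of them past the threshold, included Il1r1, the signalling receptor of interleukin-1, with 17.2, 20.5, 18.1 and 16 CPM in KO heart, against 30.5, 39.4, 20.5 and 23.5 CPM in WT heart (log2 fold change -0.67 ± 0.18). Nfkb2, a subunit of NF-kappaB, had a log2 fold change of -0.32 ± 0.09 there. Ackr2, a scavenging chemokine receptor, had -0.67 ± 0.24, and Ctf1, a cytokine of the interleukin-6 family, had 0.42 ± 0.15. The adjusted p was 1 for each (edgeR).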
